A study of Mus musculus with 2 samples.

Results

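Secreted WNT inhibitors are extracellular proteins that limit how much WNT ligand reaches its receptors. The 7 genes described here are Dkk1, Dkk2, Dkk3, Sfrp1, Sfrp2, Frzb and Wif1, taken by name from the count tables, and they are 7 of the 15944 genes that both tables list. Members of the Dickkopf family (Dkk) bind the LRP co-receptors and the Kremen proteins and so act on the β-catenin branch of WNT signalling, with Dkk3 a divergent member that binds LRP poorly. The secreted Frizzled-related proteins, to which Sfrp1, Sfrp2 and Frzb (also called Sfrp3) belong, carry a domain like the ligand-binding part of the Frizzled receptors and bind WNT proteins outside the cell. Wif1, the WNT inhibitory factor, binds WNT proteins through a domain of its own. In the developing face, WNT signals from the epithelium and the mesenchyme guide outgrowth, patterning and the choice between cartilage and bone.

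The samples were single-cell suspensions of mandibular prominence, the embryonic lower jaw, from wild-type CD1 mouse embryos at embryonic day 11.5 (E11.5, with the tongue bud) and 13.5 (E13.5, with the tongue and the first skeletal elements), 1 library per stage. No allele, drug or other treatment separates the groups, but the tissue was dissociated with more protease at E13.5 (5 mg/ml) than at E11.5 (3 mg/ml), and the sources used here do not give how many embryos were pooled, their sex or their litters. The libraries held 7099 and 6318 cells with a median of 6231 and 9280 unique molecular identifiers (UMIs, counted RNA molecules) per cell, and 71 cell barcodes occur in both. Because each stage is 1 library, stage, library, protease concentration and sex make-up cannot be told apart, and no p-value is given: 5897 of 5899 mesenchyme cells of E11.5 held no Xist UMI, and 2721 of 3905 held none in the later library. Levels are UMIs per 1000000 UMIs of a cluster or class (CPM), with exact Poisson intervals at 95%, and shares of cells carry exact binomial (Clopper-Pearson) intervals, which cover counting error only.

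In the mouse genome (GRCm38, GENCODE gene models) all 7 genes are protein-coding. Dkk1 lies at chr19:30545863-30549665 on the minus strand and Dkk2 at chr3:132085292-132180304 on the plus strand. Dkk3 spans chr7:112116017-112159057 (minus), and Sfrp1 spans chr8:23411502-23449632 (plus). Sfrp2 lies at chr3:83766321-83774316 (plus), on the same chromosome as Dkk2. Frzb lies at chr2:80411970-80447625 (minus) and Wif1 at chr10:121033960-121100650 (plus).

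RefSeq promoter sequences (GRCm38.p6) matched 5 of the 7 genes: Dkk1, Dkk2, Frzb, Sfrp2 and Wif1. The 250 bases before the start of Dkk2 and of Sfrp2 are shown because these genes were both higher at E13.5 and shared their highest clusters there. The first is chr3:132085042-132085291 and the second chr3:83766071-83766320, both 5′ to 3′ on the plus strand.
Dkk2: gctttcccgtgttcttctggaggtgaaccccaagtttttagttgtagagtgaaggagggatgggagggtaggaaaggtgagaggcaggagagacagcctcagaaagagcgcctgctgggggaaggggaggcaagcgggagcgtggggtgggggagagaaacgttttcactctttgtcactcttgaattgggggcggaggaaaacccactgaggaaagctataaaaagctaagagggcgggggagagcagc
Sfrp2: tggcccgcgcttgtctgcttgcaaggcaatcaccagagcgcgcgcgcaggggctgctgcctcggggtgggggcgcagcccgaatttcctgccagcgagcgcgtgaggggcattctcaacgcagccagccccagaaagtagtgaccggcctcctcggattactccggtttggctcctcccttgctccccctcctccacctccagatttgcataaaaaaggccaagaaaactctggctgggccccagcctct
G and C made up 55.6% of the Dkk2 stretch and 63.6% of the Sfrp2 stretch, against a median of 52.4% over all upstream windows of that length. The heptamers CTTTGAA and CTTTGAT, letters bound by the TCF/LEF factors of the WNT pathway, were searched on both strands after the sequences had been seen. Among the 5 genes only Dkk1 held a match, and 7.48% of the 32851 upstream windows in the table hold at least one of these heptamers (CTTTGAA 4.46%, CTTTGAT 3.21%). The match, in capitals, is shown with its neighbours at chr19:30549595-30549624 on the minus strand.
Dkk1: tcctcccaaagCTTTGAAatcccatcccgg
Its first base is 117 bases upstream of the RefSeq start of Dkk1 and 52 bases inside the GENCODE gene, whose start lies 169 bases further upstream. A match in these letters is a description of the sequence, and no binding was measured.

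Mesenchyme, the loose connective tissue that forms most of the jaw, carried most of the UMIs of every inhibitor. At E11.5 it held between 89.0% (Dkk3) and 96.8% (Frzb) of each gene's UMIs. These came from 5899 of 7099 cells, with 37300325 of the library's 49913485 UMIs. In the E13.5 library it held between 61.4% (Dkk3) and 96.3% (Frzb), from 3905 of 6318 cells with 34296533 of 67838169 UMIs. Dkk3 was at 13.91 CPM in that mesenchyme, beside 13.86 CPM in the E13.5 epithelium. The mesenchyme class joins 11 of the authors' clusters in each library, and 6 of its 7 listed markers (E11.5) or 5 of 7 (E13.5) were above 100 CPM. Cluster numbers belong to one library and do not match between libraries. Erythroid cells, which should not make these proteins, had 0.981 to 15.2 CPM of the 7 genes in the E11.5 library but 0 to 3.91 CPM in the E13.5 library. Levels at or below the erythroid level per cell are read as background from free RNA.

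In the mesenchyme, 4 of the 7 inhibitors were higher at E13.5 (Dkk2, Sfrp1, Sfrp2 and Wif1), 2 were lower (Dkk1 and Frzb), and Dkk3 was level. A gene was called higher or lower where it had at least 20 UMIs over both libraries, differed at least 1.5-fold and had a counting interval of the ratio that left out 1, which is a rule of size and not a test. Of 14139 mesenchyme genes measured, 27.0% were called higher and 12.2% lower by the same rule. The median log2 ratio over genes was 0.14, so the values relative to that shift were 1.10 for Dkk2, 0.79 for Sfrp1, 0.96 for Sfrp2, 2.44 for Wif1, -0.96 for Dkk1, -1.80 for Frzb and -0.14 for Dkk3, with the same calls. The 8 erythroid markers summed to 12426 CPM in the E11.5 mesenchyme and 2180 CPM in the E13.5 mesenchyme, and erythroid Dkk1 and Frzb were at 7.03 and 6.05 CPM in the first library, 0.837 and 0.279 CPM in the second. Per cell, Dkk1 had 0.310 UMIs in mesenchyme and 0.0943 in erythroid cells at E11.5, then 0.243 and 0.0145 at E13.5. For Frzb these were 0.527 and 0.0811, then 0.232 and 0.00483. The part of this free RNA in the ratios was not tested. All 6 calls held without haemoglobin, mitochondrial and ribosomal genes in the total. That alternative changes the total only and leaves any free inhibitor RNA in the counts, so it cannot measure that part.

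**Figure D1:**
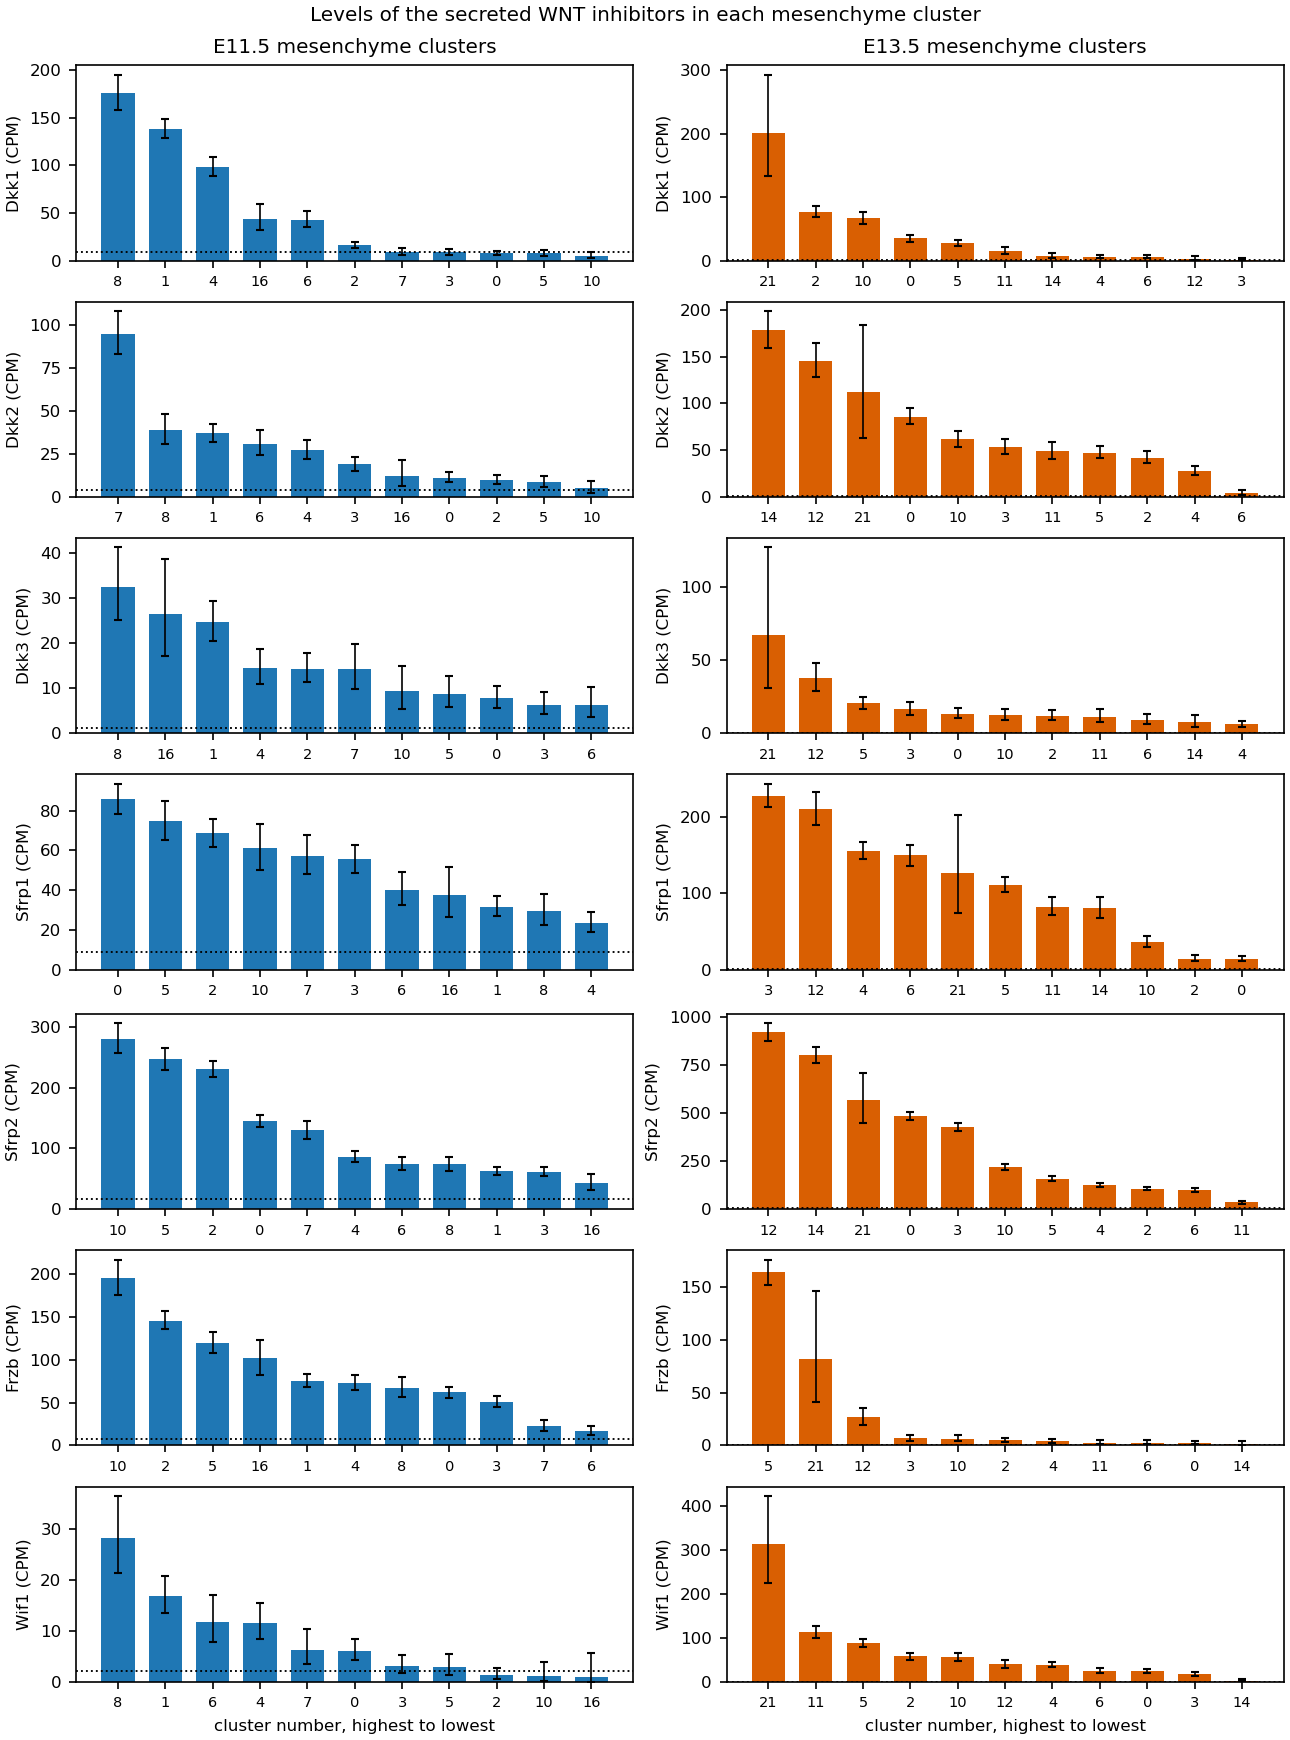
Level of each inhibitor (CPM, linear axis from 0) in the 11 mesenchyme clusters of the E11.5 library (blue) and the E13.5 library (orange), ordered from high to low, with exact Poisson 95% intervals as bars and the higher of the erythroid clusters' levels as a dotted line. Dkk1 is high in 3 clusters of E11.5 (98.0 to 176 CPM), and Frzb is spread over the E11.5 clusters but peaks in the osteogenic cluster 5 at E13.5 (164 CPM).

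Dkk1, the founding LRP-binding antagonist needed for head formation, was lower in the E13.5 mesenchyme. Its level was 49.0 CPM (46.8 to 51.3) at E11.5, then 27.7 CPM (26.0 to 29.5) at E13.5, 1.77-fold lower (1.63 to 1.92). At E11.5 the 11 clusters ran from 4.91 CPM (cluster 10) through a median of 16.2 to 176 CPM (cluster 8), with cluster 1 at 138 and cluster 4 at 98.0 CPM. Cluster 1 held 39.6% of its mesenchyme UMIs, cluster 4 held 20.4% and cluster 8 held 19.9%. Clusters 7, 3, 0, 5 and 10 had 4.91 to 8.76 CPM, which is 0.355 to 0.628 times the erythroid count per cell and is read as background. The leading clusters did not overlap in their intervals, and 4 of the 10 neighbouring pairs in the order were apart. At E13.5 the shallow cluster 21 came first at 201 CPM (133 to 293), followed by cluster 2 at 76.3, cluster 10 at 66.8 and cluster 0 at 34.9 CPM, down to 1.60 CPM in cluster 3. Clusters 2 and 10 overlapped in their intervals. Cluster 21 has 72 cells with a median of 1833 UMIs, and without it cluster 2 was highest. After each cell was thinned to 2000 UMIs, 7.93% of mesenchyme cells (7.26 to 8.65) had a Dkk1 UMI at E11.5, then 4.31% (3.69 to 5.01) at E13.5, against 1.75% and 0 of the erythroid cells. Unthinned, the shares were 15.9% and 10.8%, against 8.11% and 0.483% of erythroid cells (median depths 5895, 8303, 13137 and 18517 UMIs in that order).

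Dkk2, which can inhibit or, with other partners, assist LRP signalling, was higher at E13.5. It measured 24.9 CPM (23.3 to 26.5) at E11.5, then 58.9 CPM (56.4 to 61.5) at E13.5, 2.37-fold higher (2.19 to 2.56). At E11.5, cluster 7 stood apart at 95.2 CPM, 2.45 times cluster 8 (38.8 CPM), with a median of 18.95 CPM over clusters and 4.91 CPM in cluster 10. Cluster 7 held 24.6% of the gene's mesenchyme UMIs from 6.93% of the cells. Clusters 5 and 10 were below the erythroid count per cell. At E13.5 the order began with cluster 14 (178 CPM, 159 to 199) and cluster 12 (146 CPM, 128 to 165), whose intervals overlapped, and ended with cluster 6 at 4.09 CPM. The median over clusters was 53.5 CPM. The thinned share was 4.56% at E11.5, then 9.30% at E13.5, against 0.219% and 0.485% of erythroid cells.

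Dkk3, the divergent member, was near equal in both libraries. Its mesenchyme level was 13.9 CPM in both libraries (ratio 0.998, 0.879 to 1.13), and 93.1% of its positive cells at E11.5 held a single UMI. At E11.5 the clusters ran from 6.27 CPM (cluster 6) to 32.5 CPM (cluster 8), with 14.2 CPM as the median, and 1 of 10 neighbouring pairs was apart. The first 3 clusters, 8, 16 and 1, overlapped in their intervals. At E13.5, cluster 21 had 67.1 CPM (30.7 to 127) and cluster 12 had 37.8 CPM (29.3 to 48.1), and the lowest was cluster 4 at 5.996 CPM. Cluster 12 was highest when cluster 21 was left out. The thinned share was 2.81% (2.41 to 3.27) at E11.5, then 3.502% (2.94 to 4.13) at E13.5.

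Sfrp1, a WNT-binding protein of many embryonic tissues, was higher at E13.5 and less even over the clusters there. The level was 54.5 CPM (52.2 to 56.9) at E11.5, then 104 CPM (101 to 107) at E13.5, 1.91-fold higher (1.80 to 2.01). At E11.5 it was the most even of the 7 genes, from 23.7 CPM in cluster 4 to 85.7 CPM in cluster 0, a 3.62-fold range (2.89 to 4.59) in which 0 of 10 neighbouring pairs were apart. At E13.5 the range was 16.4-fold (12.7 to 21.6), from 13.9 CPM in cluster 0 to 228 CPM in cluster 3. Cluster 12 (210 CPM) overlapped with cluster 3, and clusters 4 and 6 followed at 155 and 149 CPM. Clusters 0 and 2, at 13.9 and 14.4 CPM, stood below every other mesenchyme cluster. Cells with a UMI made up 9.98% at E11.5, then 17.1% at E13.5 after thinning, against 0.658% and 0 of erythroid cells.

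Sfrp2, a close relative of Sfrp1, was higher at E13.5, with 4959 mesenchyme UMIs in the earlier library and 9755 in the later. Its level was 133 CPM (129 to 137) and then 284 CPM (279 to 290), 2.14-fold higher (2.07 to 2.21). At E11.5 cluster 10, which leads in Sox9 (185 CPM), the cartilage factor, was highest at 281 CPM. Clusters 5 and 2 followed at 247 and 230 CPM, and cluster 16 was lowest at 42.7 CPM. At E13.5 clusters 12 (920 CPM, 876 to 966) and 14 (801 CPM, 760 to 844) had non-overlapping intervals, and cluster 11 was lowest at 35.6 CPM, a 25.8-fold range (20.7 to 32.6). The median over clusters was 220 CPM, and 7 of 10 neighbouring pairs were apart. Single cells of E13.5 held up to 68 Sfrp2 UMIs, and cells with 3 or more carried 82.4% of its UMIs, against 48.6% at E11.5. The thinned share was 18.1% (17.1 to 19.1) at E11.5, then 28.1% (26.7 to 29.6) at E13.5, and 2.85% and 0.485% in erythroid cells.

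Frzb, first known from developing cartilage, was lower at E13.5 and narrowed to few clusters. It measured 83.3 CPM (80.4 to 86.3) at E11.5, then 26.4 CPM (24.7 to 28.2) at E13.5, 3.15-fold lower (2.93 to 3.40). At E11.5 clusters 10, 2 and 5 led with 196, 146 and 120 CPM, the median cluster had 73.1 CPM and the lowest, cluster 6, had 17.1 CPM, equal to 1.01 times the erythroid count per cell. At E13.5 the authors' osteogenic progenitors, cluster 5, had 164 CPM (153 to 177), and 81.3% of the gene's mesenchyme UMIs came from these 422 cells, 10.8% of the mesenchyme. This cluster is marked by Ibsp (997 CPM) and Sp7 (115 CPM), genes of bone-forming cells, and also had 236 CPM of Col2a1, the main cartilage collagen. Cluster 12 had 26.9 CPM and cluster 21 had 82.0 CPM (40.9 to 147). The other 8 clusters had 1.14 to 6.66 CPM. Without E11.5 cluster 10 and E13.5 cluster 5 the log2 ratio was -3.77, against -1.66 with them. Thinned cells with a UMI made up 13.8% (12.9 to 14.7) at E11.5, then 4.03% (3.42 to 4.70) at E13.5, against 1.10% and 0 of erythroid cells.

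Wif1 had the highest stage ratio of the 7 in the mesenchyme. It measured 8.04 CPM (7.16 to 9.01) at E11.5, then 48.0 CPM (45.7 to 50.4) at E13.5, 5.97-fold higher (5.28 to 6.78). At E11.5 it was highest in cluster 8 (28.2 CPM, 21.4 to 36.4), then in cluster 1 (16.8 CPM), with a median of 6.03 CPM over clusters. Clusters 2, 3, 5, 10 and 16 were below the erythroid count per cell. At E13.5 it led in the shallow cluster 21 (313 CPM, 226 to 423), then in cluster 11 (113 CPM, 99.6 to 127) and the osteogenic cluster 5 (88.7 CPM, 80.2 to 97.8), and was lowest in cluster 14 at 2.85 CPM (0.924 to 6.64). Clusters 11 and 5 held 16.2% and 24.2% of its mesenchyme UMIs. Cluster 11 was highest when cluster 21 was left out, and the log2 ratio between stages was then 2.55, against 2.58. The thinned share was 1.51% at E11.5, then 7.53% at E13.5, and erythroid cells held 0 Wif1 UMIs at E13.5, which allows up to 0.837 CPM (3 counts).

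Outside the mesenchyme, 3 clusters were classed against or without the authors' lineage name, from the listed markers: cluster 17 of the earlier library (to the authors mesenchyme and neural crest) as glia-like, E11.5 cluster 14 (no name) as muscle-like and E13.5 cluster 20 (named mast cells) as macrophage-like. The E13.5 glia are cluster 18, which the authors call neurogenic. Among the cell classes, Sfrp1 was highest in glia, the Schwann-type cells along nerves. It was at 194 CPM (144 to 256) in 26 cells at E11.5, then 135 CPM (116 to 157) in 102 cells at E13.5. Both levels were beyond the interval of the pooled mesenchyme class. Single mesenchyme clusters of E13.5 exceeded the glial level, with cluster 3 at 228 CPM and cluster 12 at 210 CPM. E13.5 glia also held Dkk2 at 44.3 CPM (33.6 to 57.2) and Wif1 at 24.4 CPM (16.7 to 34.5), the second below the interval of the mesenchyme and the first overlapping it. In the same cells 2 of 3 neuron markers were above 100 CPM and the 3 summed to 707 CPM, against 0 of 3 and 46.6 CPM in the E11.5 glia, and the part of neurons in these levels was not tested. Dkk3 was highest of the epithelial clusters in the periderm-like cluster 16 of E13.5, which is rich in Krtdap (1263 CPM), a gene of differentiating surface layers. There it measured 51.1 CPM (37.5 to 67.9), against 15.6 CPM in epithelial cluster 9 and 5.89 CPM in cluster 7, and 17.2% of the thinned cells had a UMI. Wif1 was highest of the E13.5 muscle clusters in cluster 19, at 71.6 CPM (60.2 to 84.6), against 14.9 in cluster 1 and 8.96 in cluster 15. Cluster 19 has the most Acta1 (5652 CPM), the actin of contractile fibres. Macrophages and endothelium held at most 14.7 CPM of any inhibitor at E13.5, and endothelial Sfrp2 gave that value.

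**Figure D2:**
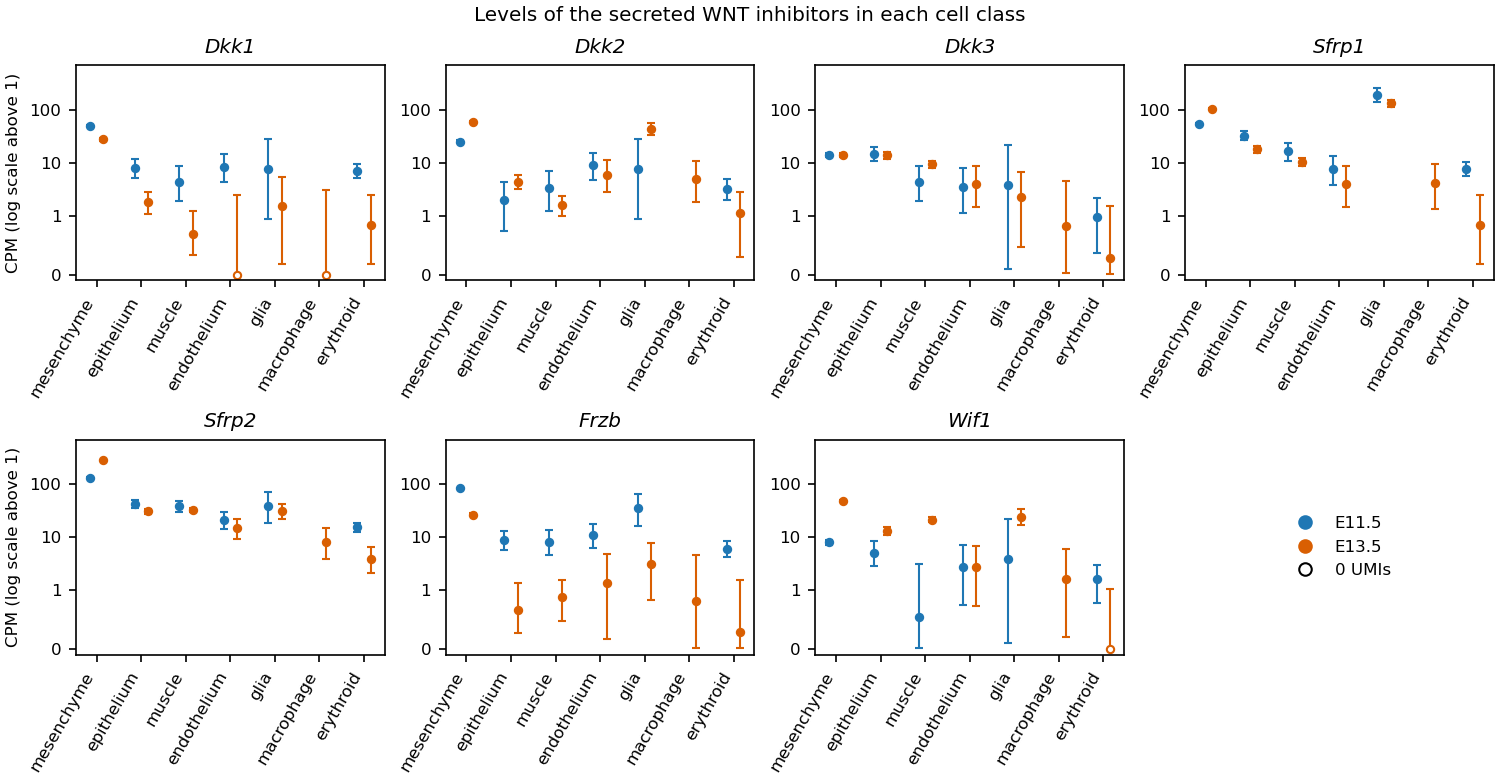
Level of each inhibitor (CPM, log scale above 1 and linear below) in each cell class at E11.5 (blue) and E13.5 (orange), with exact Poisson 95% intervals and open points for 0 UMIs. By point value, mesenchyme is the class with the highest Dkk1, Dkk2, Sfrp2, Frzb and Wif1 in both libraries. Sfrp1 is highest of the classes in glia (194 and 135 CPM). Mesenchyme clusters 3 and 12 of E13.5, not drawn singly here, are above that glial level (228 and 210 CPM).

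In the epithelium Wif1 was called higher and Dkk1, Sfrp1 and Frzb lower, 1 and 3 of 7 members, where 9.33% of 11677 genes were called higher and 14.2% lower. Wif1 was at 5.05 CPM at E11.5, then 12.9 CPM at E13.5, 2.55-fold higher (1.50 to 4.69). Sfrp1 was at 32.7 CPM and then 17.9 CPM, 1.83-fold lower (1.41 to 2.34). This call was lost with G1 cells only, with the mean of per-cell CPM and with a fold of 2. Per cell Sfrp1 was at 2.32 times the erythroid count at E11.5 and 15.6 times at E13.5. The part of free RNA in its ratio was not tested. The Dkk1 and Frzb calls rest on E11.5 levels of 8.09 and 8.76 CPM, which per cell were 0.628 and 0.791 times the erythroid count, so both E11.5 levels are read as background. Sfrp2 was at 43.1 and 30.9 CPM, 1.40-fold lower (1.13 to 1.72), which did not reach 1.5-fold. Dkk3 was at 14.8 and 13.9 CPM (ratio 0.935, 0.663 to 1.34).

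In muscle Dkk3 and Wif1 were called higher and Sfrp1 and Frzb lower, 2 each of the 6 members measured, where 9.38% of 11428 genes were called higher and 13.7% lower. Wif1 had 1 UMI in 151 cells at E11.5, then 313 UMIs in 752 cells at E13.5, a ratio of 39.0 with a counting interval of 6.95 to 1544. Dkk3 was at 4.38 CPM and then 9.34 CPM (ratio 2.13, 1.05 to 5.04), from 8 UMIs at E11.5. Sfrp1 measured 16.4 CPM and then 10.5 CPM, 1.56-fold lower (1.02 to 2.32), a call lost under 4 of 8 alternatives. Per cell Sfrp1 was at 1.93 times the erythroid count at E11.5 and 14.1 times at E13.5. The part of free RNA in its ratio was not tested. Frzb measured 8.21 and 0.886 CPM, with its E11.5 count per cell at 1.22 times that of erythroid cells. Acta1 was at 27.4 CPM in the single E11.5 muscle cluster, beside 5652 CPM in E13.5 cluster 19, and the part of muscle maturation in these ratios was not tested. In the endothelium 0 of the 2 members measured, Dkk2 and Sfrp2, were called, where 7.43% of 8586 genes were called higher and 13.6% lower. Their E11.5 counts per cell were 1.83 and 0.908 times the erythroid count, so the E11.5 Sfrp2 level there is read as background. Macrophage markers differed between these endothelial cells, with 4 of 6 above 100 CPM at E11.5 (813 CPM summed) and 0 of 6 in the later library (12.1 CPM), and their part was not tested. The median log2 ratio over genes was -0.10 in epithelium, -0.12 in muscle and -0.12 in endothelium.

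**Figure D3:**
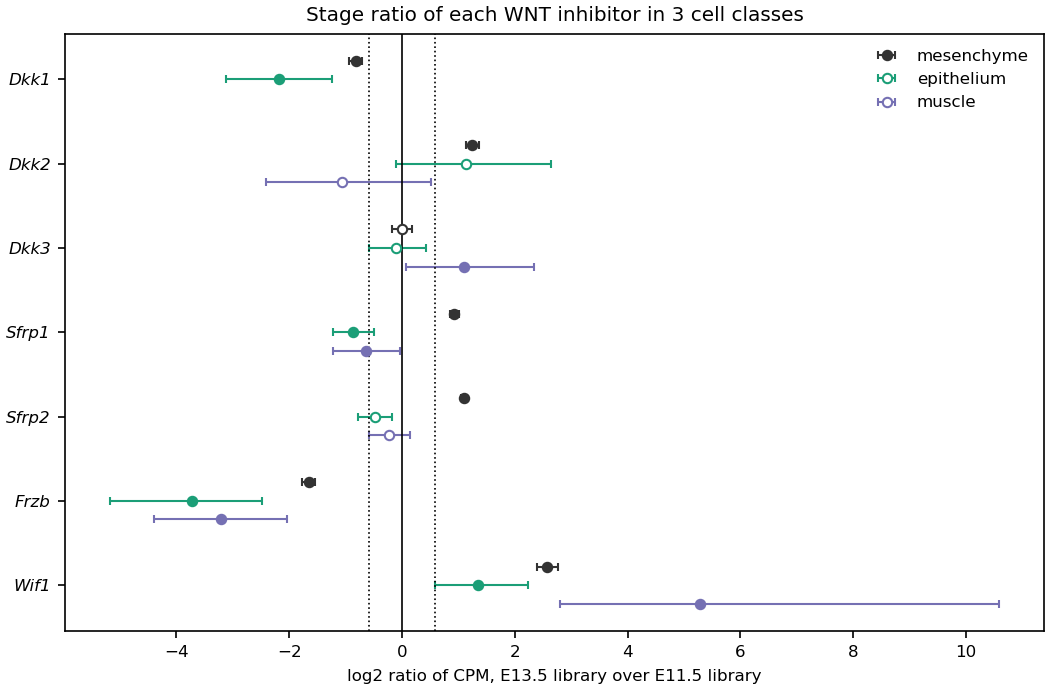
Log2 ratio of the level at E13.5 over E11.5 for each inhibitor with at least 20 UMIs, in mesenchyme (black), epithelium (green) and muscle (purple), with 95% counting intervals; filled points meet the call rule and dotted lines mark 1.5-fold. Sfrp1 lies to the right in mesenchyme (0.93) and to the left in epithelium (-0.87) and muscle (-0.65), while Wif1 lies to the right in all 3 classes.

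The order of the mesenchyme clusters was compared between members by correlating log2(CPM + 1) over the 11 clusters of a library. These are descriptions: the clusters share a library, their cells may have been grouped with these genes, and depth differs among them. Dkk1 and Sfrp1 ran opposite in both libraries, with Pearson r -0.902 and Spearman rho -0.855 at E11.5, and r -0.604 and rho -0.736 at E13.5. Dkk1 and Wif1 ran together, with r 0.709 at E11.5, then 0.632 at E13.5. Dkk2 and Sfrp2 went from r -0.500 (rho -0.573) at E11.5 to r 0.671 (rho 0.882) at E13.5, where clusters 14 and 12 led in both. Dkk2 and Frzb had r -0.773 at E11.5, then 0.218 at E13.5. Cluster 21 of E13.5, whose cells are shallow, was also left out, a choice made after its depth was seen. Over the other 10 clusters r became -0.864 for Dkk1 with Sfrp1, 0.441 for Dkk1 with Wif1, 0.647 for Dkk2 with Sfrp2 and 0.110 for Dkk2 with Frzb. The sign of r changed in none of these 4 pairs. The rho of Dkk2 with Frzb was near 0 and did change sign, from 0.027 to -0.091.

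Lef1 and Axin2, which WNT signalling through β-catenin raises in many tissues, followed Dkk1 and Dkk2 across the E11.5 clusters. Against Dkk2, r was 0.832 for Lef1 and 0.836 for Axin2, and against Dkk1 it was 0.771 and 0.651. Against Wif1 it was 0.731 and 0.683, and against Sfrp1 -0.743 and -0.633. For Sp5, another target gene, r was -0.05 against Dkk1 and -0.09 against Dkk2 at E11.5. At E13.5 it was -0.09 and -0.26 (0.31 and -0.16 without cluster 21). Sp5 had only 50 mesenchyme UMIs at E11.5, at 0 to 3.37 CPM per cluster. Its E11.5 values therefore cannot show whether it shared the pattern of Lef1 and Axin2. Lef1 was highest in E11.5 cluster 8 (406 CPM) and cluster 1 (362 CPM), the clusters that led in Dkk1, and Axin2 was 78.2 and 78.0 CPM there. At E13.5 the values against Dkk2 were 0.455 for Lef1 and 0.584 for Axin2, and against Dkk1 they were 0.230 and 0.549. Without cluster 21 they were 0.599 and 0.549 against Dkk2, and 0.571 and 0.470 against Dkk1. By rank the E13.5 values against Dkk2 were lower, with rho 0.100 for Lef1 and 0.282 for Axin2, and 0.224 for each without cluster 21. Against Dkk1 rho was 0.264 for Lef1 and 0.536 for Axin2, and 0.588 and 0.394 without cluster 21. In E13.5 cluster 2, the deeper of the clusters leading in Dkk1, Lef1 was at 147 CPM and Axin2 at 48.8 CPM, the highest Lef1 and Axin2 levels of that library's mesenchyme clusters.

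Few mesenchyme cells showed more than 1 inhibitor at the thinned depth. Of 5899 cells at E11.5, 53.3% had a UMI of none of the 7, 36.1% of 1, 9.26% of 2 and 1.24% of 3. Of 3826 cells at E13.5 these shares were 44.1%, 40.9%, 12.5% and 2.12%. For each of 21 pairs the share of cells with both genes was set beside the share if detection were independent, over all mesenchyme and within each cluster. At E11.5, 3 pairs were above and 3 below the independent share by more than the counting interval, and in all 6 the within-cluster value lay inside the interval. Dkk1 with Sfrp1, for one, was seen in 0.492% of cells (0.329 to 0.705), against 0.792% if independent and 0.531% within clusters. At E13.5, 4 pairs were above and 4 below, and 2 stayed above within clusters. Sfrp1 with Sfrp2 was found in 5.91% of cells (5.18 to 6.70), against 5.07% within clusters. Sfrp1 with Frzb was found in 1.23% (0.904 to 1.63), against 0.872% within clusters. Dkk2 with Sfrp2, whose clusters coincide, was found in 2.72% (2.23 to 3.28), below the 3.37% that independence within clusters gives. These departures moved with depth. With cells thinned to 1000 UMIs, Sfrp1 with Frzb stayed above its within-cluster value (0.618%, 0.396 to 0.918, against 0.312%). Sfrp1 with Sfrp2 was then inside (2.11%, 1.68 to 2.61, against 1.75%), and so was Dkk2 with Sfrp2 (1.42%, 1.07 to 1.84, against 1.42%). Other pairs left the within-cluster value at that depth: Dkk1 with Frzb (below) and Dkk2 with Dkk3 (above) at E11.5, and Dkk1 with Sfrp2 (below) and Dkk2 with Wif1 (above) at E13.5.

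Levels by the authors' cell cycle phase differed most for Sfrp2 at E13.5. It was at 396 CPM in G1 cells, 188 CPM in S and 164 CPM in G2M, where G1 cells made up 57.0% of the mesenchyme (31.7% at E11.5). At E11.5 the values were 144, 119 and 136 CPM. Clusters differ in their phases, so G1 was also set against S and G2M within 6 clusters of each library. At E13.5 these were clusters 0, 2, 3, 5, 6 and 11, without clusters 12 and 14, the highest in Sfrp2. At E11.5 they were clusters 0, 4, 5, 6, 7 and 8, without cluster 10, the highest in Sfrp2 there. Sfrp2 was higher in G1 in 3 of 6 clusters at E13.5 and in 3 of 6 at E11.5 (lower in 1), by at most 1.71-fold. Wif1 was higher in G1 in 3 of 6 clusters at E13.5 and in 0 of 6 at E11.5. Dkk1 was lower in G1 in E13.5 cluster 2, at 54.9 CPM against 107 CPM, and higher in G1 in the osteogenic cluster 5, at 37.9 against 16.7 CPM.

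The 3 genes nearest to each member were found by correlating log2(CPM + 1) over the 11 mesenchyme clusters, among the 8464 genes of E11.5 or 8879 of E13.5 with at least 200 UMIs. With so many genes and few clusters, high values are usual, and they are given as description. The E13.5 lists kept the shallow cluster 21, the highest for Dkk1, Dkk3 and Wif1, and were not redone without it. At E11.5 the nearest were Fbln1 to Dkk1 (r 0.928), Cd1d1 to Dkk2 (0.938), Cald1 to Dkk3 (0.973), Klhdc2 to Sfrp1 (0.935), Sox9 to Sfrp2 (0.879), Ppif to Frzb (0.961) and Phospho2 to Wif1 (0.924). At E13.5 the nearest were Amer2 to Dkk1 (0.953), Plcb1 to Dkk2 (0.906), Ppp1r12a to Dkk3 (0.9503), Mrpl55 to Sfrp1 (0.858), Mn1 to Sfrp2 (0.970), Gmds to Frzb (0.948) and Cyp26b1 to Wif1 (0.949). The Sfrp2 list of E13.5 also held Rspo2 (0.923), a WNT agonist, and Wnt2 (0.921), a ligand. The Frzb list of E13.5 held Dlx5 (0.900), a jaw and bone homeobox gene, and Sdc1 (0.894). None of a member's 3 genes in one library was among its 3 in the other.

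Of the 77 other WNT pathway genes on a list by role, 64 had enough UMIs in the mesenchyme, and 26 were called higher and 7 lower, where 27.0% and 12.2% of all mesenchyme genes were; their log2 ratios had a median of 0.45, beside 0.93 for the 7 inhibitors and 0.14 for all genes. Among ligands, 7 of 11 were called higher and 0 lower. Wnt16 was at 0.349 CPM at E11.5, then 5.83 CPM at E13.5, and Wnt5a, which signals mostly outside β-catenin, was at 42.0 and 133 CPM. Wnt5b was level at 21.6 and 21.1 CPM. Of the release proteins, Wls, the carrier of WNT to the cell surface, was at 48.7 and 75.3 CPM (1.55-fold higher), and Porcn, which adds their lipid, was not called at 4.45 and 6.06 CPM.

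Among receptors and co-receptors 5 of 15 were called higher and 1 lower, near the shares of all genes (27.0% and 12.2%). Fzd8 was at 1.10 and 6.06 CPM, and Fzd1 was lower, at 32.0 and 17.3 CPM. The Dickkopf target Lrp6 was at 42.0 and 37.0 CPM and its partner Kremen1 at 5.23 and 5.13 CPM, neither of them called. The agonists Rspo1 to Rspo4 were listed with their receptors Lgr4, Lgr5 and Lgr6. Of these 7 genes 5 were called higher and 1 lower, where 27.0% and 12.2% of all genes were. The receptor Lgr6 was at 0.107 and 3.21 CPM. Of the agonists, Rspo3 was at 26.5 and 61.3 CPM, and Rspo2 was 3.60-fold lower, at 29.3 and 8.13 CPM.

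Of 12 other inhibitors and Dickkopf receptors, 5 were called higher and 3 lower, where 27.0% and 12.2% of all mesenchyme genes were. Sfrp4, of the same family as Sfrp1 and Sfrp2, had 10 UMIs at E11.5, then 1047 at E13.5, 114-fold higher (61.7 to 238). Shisa3, of a family that holds Frizzled inside the cell, was 4.05-fold lower. Among 17 nuclear effectors and target genes 3 were called higher and 2 lower, not above those shares of all genes. Lef1 was at 145 and 53.0 CPM, 2.74-fold lower, and Axin2 at 39.7 and 20.7 CPM, 1.92-fold lower. Sp5, a target in other tissues, was at 1.34 and 34.3 CPM, 25.6-fold higher (19.3 to 34.7).

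**Figure D4:**
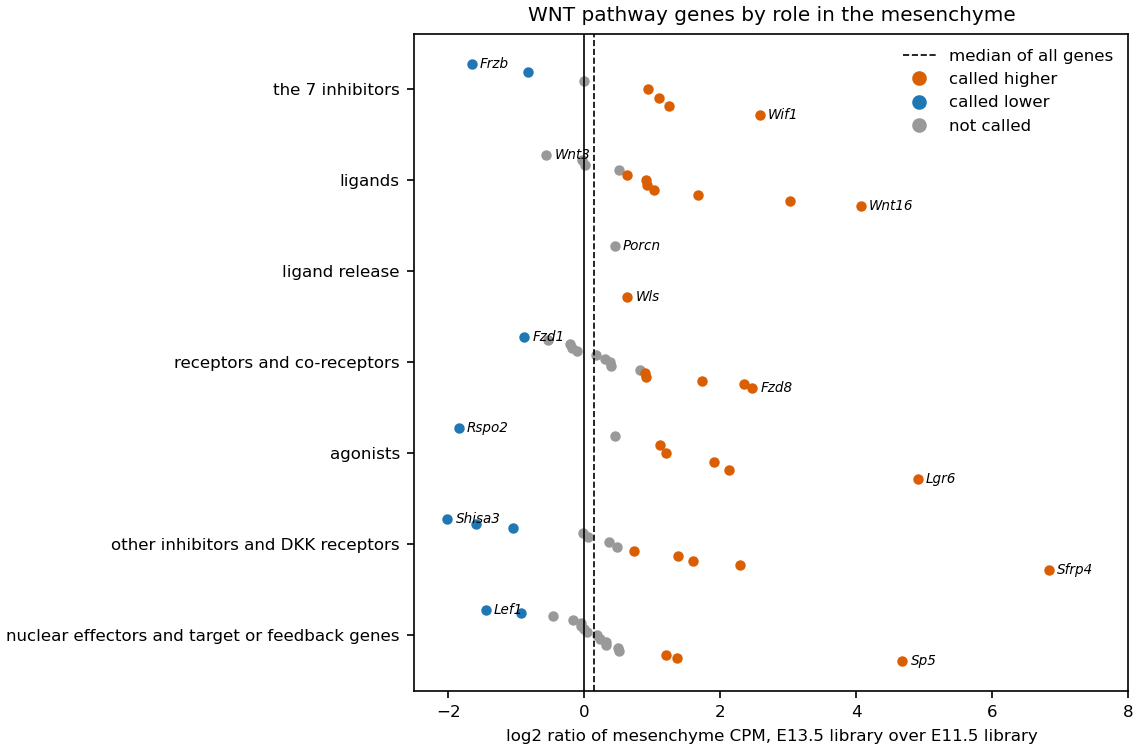
Log2 ratio of the mesenchyme level at E13.5 over E11.5 for the 7 inhibitors and, by role, for the other WNT pathway genes with at least 20 UMIs; each point is a gene, orange if called higher, blue if called lower and grey if not called, and the dashed line is the median of all genes (0.14). The lowest and highest gene of each row are named, and Sfrp4 lies farthest to the right (6.83). The row of agonists also holds their receptors Lgr4, Lgr5 and Lgr6.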

How the data were processed

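Gene counts are UMIs per gene and cell in the tables the authors deposited, with a second table giving each cell's cluster, lineage name, cell cycle phase, total and mitochondrial fraction, as the authors computed it. Per the submitters' processing notes, Cell Ranger 2.0.0, Seurat 2.3.4 and mm10 were used; how doublets were treated is not given in the sources used here, and no caller was run. All deposited cells were kept. UMIs were summed per cluster or class (lineage names checked against markers) and divided by all UMIs of those cells, in Python 3.11.15 with scipy 1.17.1. Intervals were exact Poisson, Clopper-Pearson and, for ratios, conditional binomial. The ratio interval and the call rule were tested on simulated counts. These were drawn as Poisson, as that interval assumes, without clumping of UMIs in cells. Cells were thinned without replacement to 2000 UMIs, which left out 79 mesenchyme cells of E13.5 and 0 of E11.5. Genes named are the 7 members, the 3 nearest in cluster pattern, and, per role of the pathway list, the highest and lowest ratio with at least 50 UMIs plus Axin2, Lef1, Sp5, Kremen1, Lrp6, Wnt5a and Rspo3; context genes (Sox9, Col2a1, Ibsp, Sp7, Krtdap, Acta1) were chosen after their values were seen. The members and lists were chosen with earlier results of these data known. Alternatives changed the scaling, the cells and the thresholds. The E11.5 library summed to 49913485 UMIs, the E13.5 library to 67838169.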

Additional observations from a re-analysis of the deposited data

Results flagged for a closer look

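Sfrp1 differed between classes in the direction of its stage ratio. Its log2 ratio of E13.5 over E11.5 was 0.93 in the mesenchyme, -0.87 in the epithelium and -0.65 in muscle. The difference between classes was not tested because each stage is 1 library. At E11.5 the Sfrp1 count per cell was 3.34 times the erythroid count in the mesenchyme, 2.32 times in the epithelium and 1.93 times in muscle. At E13.5 it was 63.0, 15.6 and 14.1 times. The part of free RNA in these directions was not tested. The epithelial call was lost with G1 cells only, with the mean of per-cell CPM and with a fold of 2. The muscle call was lost with the deepest 5% of cells left out, with size factors, without haemoglobin, mitochondrial and ribosomal genes in the total, and with a fold of 2.

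E13.5 cluster 8, which the authors left without a lineage name, entered no comparison, and 6 inhibitors were above the limit of 3 counts in its 304 cells. Sfrp2 was at 88.5 CPM, Dkk2 at 44.2, Sfrp1 at 25.9, Dkk1 at 10.7, Frzb at 10.7 and Dkk3 at 7.63 CPM. The cells have a median of 935.5 UMIs, and in them 8 of 8 erythroid, 3 of 7 mesenchyme and 3 of 7 epithelial markers were above 100 CPM.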

How the results depend on the processing

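Under 10 alternatives to the scaling and the cells, 2 of them chosen after seeing the data (E13.5 cluster 21 left out, and barcodes in both libraries left out), each of the 6 called mesenchyme members kept its call, and Dkk3 was not called under any. Log2 ratios ranged from -1.02 to -0.76 for Dkk1, 1.10 to 1.51 for Dkk2, 0.79 to 0.996 for Sfrp1, 0.96 to 1.46 for Sfrp2, -3.77 to -1.21 for Frzb and 2.31 to 2.68 for Wif1. With a fold of 2, members called lower in the mesenchyme were 1 (Frzb), with the Dkk1 call lost, and members called higher were 3 (Dkk2, Sfrp2 and Wif1), with the Sfrp1 call lost. In the epithelium, members called lower were 5 with the E11.5 cell limits and 0 with G1 cells only, and the mean of per-cell CPM and a fold of 2 each gave 2 (Dkk1 and Frzb). Members called higher there were 0 with G1 cells only, 2 with the deepest 5% of cells left out, 2 with size factors, 2 without haemoglobin, mitochondrial and ribosomal genes, and 3 with the mean of per-cell CPM. In muscle, leaving out the deepest cells gave 1 higher and 1 lower, and size factors, the sum without those gene classes and a fold of 2 each gave 1 lower (Frzb); G1 cells only could not be run, with too few cells. The share of all genes called was taken under the main rule only, so the counts under alternatives have no such share beside them. Counts over the pathway list stayed within 1.5 times under all 12 alternatives run on it. With G1 cells only, the highest E11.5 mesenchyme cluster was 5 and not 10 for Sfrp2, and 2 and not 10 for Frzb. For Dkk3 it was 1 and not 8. Clusters with too few G1 cells were not ranked there. Over both libraries, 13 results on the highest cluster moved in cluster or beyond the counting interval, and 57 stayed. The causes were not tested. Depth limits shares: all 28 mesenchyme shares moved with the depth of thinning, as did 13 of 42 ratios of joint to independent detection. No paired analysis was possible because each stage has 1 library.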
